A study of Caenorhabditis elegans with 2 samples.

Results

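The nuclear hormone receptor genes of Caenorhabditis elegans were examined for binding of LIN-13 in a chromatin immunoprecipitation and sequencing (ChIP-seq) experiment on whole L2 larvae. The receptor genes were chosen by name, as every nuclear protein-coding gene called nhr- with a number in the Ensembl annotation, which gave 269 of 19973 nuclear protein-coding genes. Each was then described by the peak summits in its promoter window, taken as 1000 bp upstream to 200 bp downstream of its outermost annotated start. The peaks came from the deposited thresholded list, so which receptor genes carry a peak was selected on the deposited signal, and the counts below are descriptions without a test. The series has 1 group with 2 biological replicates. Its larvae, of mixed sex, were of strain OP49, which carries the unc119(ed3) allele and the wgIs49 transgene, a lin-13 gene tagged with TY1, EGFP and FLAG beside an unc119 marker. The labels name lin-13 as the antibody and also describe the immunoprecipitation as being against the eGFP fusion. The lists thus report a tagged protein made from a transgene, averaged over all cells of the animal, and a peak shared by all tissues cannot be told apart from one in a few cells. Data from larvae without the tag were not analysed here.

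Nuclear hormone receptors are transcription factors that bind DNA through a C4 zinc-finger domain and, in many cases, change activity when a small lipophilic ligand occupies a second domain. Nematodes have expanded this family far beyond that of insects or vertebrates, largely by duplication of a gene like HNF4, and many of the copies lie in clusters of neighbours. A smaller set has recognisable partners in flies and mammals and acts in moulting, in the timing of development and in fat metabolism. LIN-13 has many zinc fingers and belongs to the synMuv B class, whose members hold back vulval fate and keep germline genes silent in somatic cells.

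The sequences at 8 receptor promoter summits are shown here because they hold the letters that recurred between peaks, or, at nhr-255, another gene. Each runs 5′ to 3′ on the strand of the receptor gene and covers up to 75 bp on either side of the summit, and at nhr-47 it stops at the annotated start. Sequences are from the RefSeq copy of WBcel235, the assembly of ce11. Capitals mark the motif GAGAGA, the motif GCGTCTC or the motif GCGCCAGC, on either strand, and at nhr-255 the 84 bases of an annotated tRNA-Leu gene. Not every summit with these motifs is shown, as GAGAGA was also within 75 bp of the summits of nhr-49, nhr-68 and nhr-105.
nhr-1 (X:17513656-17513806, plus strand): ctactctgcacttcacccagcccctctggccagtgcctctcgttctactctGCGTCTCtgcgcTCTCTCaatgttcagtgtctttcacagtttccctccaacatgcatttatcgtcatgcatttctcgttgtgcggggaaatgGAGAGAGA
nhr-32 (X:13251602-13251752, plus strand): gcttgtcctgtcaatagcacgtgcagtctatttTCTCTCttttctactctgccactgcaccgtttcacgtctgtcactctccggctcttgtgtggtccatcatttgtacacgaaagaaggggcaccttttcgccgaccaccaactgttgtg
nhr-48 (X:15707601-15707751, plus strand): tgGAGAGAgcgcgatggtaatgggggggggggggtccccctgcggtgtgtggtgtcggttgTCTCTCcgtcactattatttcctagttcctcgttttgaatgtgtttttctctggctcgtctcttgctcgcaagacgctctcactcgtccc
nhr-119 (II:2800934-2801084, minus strand): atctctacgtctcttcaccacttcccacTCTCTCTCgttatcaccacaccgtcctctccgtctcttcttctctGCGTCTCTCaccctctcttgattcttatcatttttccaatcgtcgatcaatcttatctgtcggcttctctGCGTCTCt
nhr-57 (V:4131620-4131770, plus strand): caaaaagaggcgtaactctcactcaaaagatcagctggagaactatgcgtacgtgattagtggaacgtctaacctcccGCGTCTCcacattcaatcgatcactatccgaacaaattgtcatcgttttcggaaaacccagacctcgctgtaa
nhr-142 (V:5790994-5791144, minus strand): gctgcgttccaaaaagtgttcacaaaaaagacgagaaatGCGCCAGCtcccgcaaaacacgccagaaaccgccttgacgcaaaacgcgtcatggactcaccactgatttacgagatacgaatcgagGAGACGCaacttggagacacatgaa
nhr-47 (V:5505164-5505252, plus strand): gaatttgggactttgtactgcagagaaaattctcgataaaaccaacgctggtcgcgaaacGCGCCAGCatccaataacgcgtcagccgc
nhr-255 (X:15741998-15742148, plus strand): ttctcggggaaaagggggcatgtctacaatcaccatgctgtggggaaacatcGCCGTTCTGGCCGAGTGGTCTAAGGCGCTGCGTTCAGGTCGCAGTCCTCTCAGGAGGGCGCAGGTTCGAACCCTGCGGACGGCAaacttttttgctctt

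Receptor genes seldom carried a thresholded promoter peak. Of the 269 genes, 14 did (5.20%, exact 95% interval 2.87 to 8.58), beside 11.6% of all nuclear protein-coding genes. They were nhr-1, nhr-3, nhr-32, nhr-47, nhr-48, nhr-49, nhr-57, nhr-68, nhr-79, nhr-105, nhr-119, nhr-142, nhr-255 and nhr-256. Intervals on shares cover counting error only, and neighbouring receptor genes are not independent of each other. In the pooled list before thresholding the picture was different. There, 107 receptor genes (39.8%) had an entry with its summit in the promoter window, beside 36.3% of all genes. The same was seen in each replicate's own list, with 116 receptor genes (43.1%) beside 38.6% of all genes in replicate 1, and 109 (40.5%) beside 36% in replicate 2. Over all chromosomes together, receptor genes thus entered the unthresholded lists about as often as other genes but mostly with weak entries. Of the 107 with a pooled entry, 14 had a thresholded peak (13.1%, exact 95% interval 7.34 to 21.0), beside 31.8% of the 7260 genes of any kind with a pooled entry. By chromosome, the pooled share was above that of all genes on V (38.3% beside 26.2%) and X (60.9% beside 37.3%). It was also above on II (46.7% beside 32.7%) and IV (39.4% beside 35.8%). On I (26.1% beside 43.8%) and III (37.5% beside 51.9%) it was below. These differences were not tested. The strongest entry of a receptor promoter had a median pooled rank of 9883, where 1 is the highest deposited signal of 30000 entries, beside 7203.5 for all genes with an entry.

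Among homeobox genes named ceh-, a thresholded peak at 3 of 63 genes (4.76%, exact 95% interval 0.993 to 13.3) and a pooled entry at 19 (30.2%, interval 19.2 to 43.0) gave shares whose intervals overlapped those of the receptor genes. Among genes with a pooled entry, a thresholded peak was found at 13.1% of receptor genes and at 15.8% of ceh- genes (exact 95% interval 3.38 to 39.6). C-type lectin genes named clec-, another large expanded family, had a pooled entry at 17 of 240 genes (7.08%, interval 4.18 to 11.1), at a median rank of 18687, and a thresholded peak at 4 (1.67% of all, and 23.5% of those with an entry). The differences between families were not tested.

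The 14 peaks were of middling strength. By pooled signal they ranked between 426 and 2548, at a median of 1542.5, beside a median of 1240.5 over the 2312 genes with a thresholded promoter peak. Of the 14, 6 were among the 1000 strongest entries (42.9%, beside 42.2% of the 2312 genes) and 0 among the 300 strongest (beside 13.8%). All 14 overlapped an entry in both replicates by at least 1 bp, and 12 of them ranked within the first 3040, the length of the thresholded list, in each. The thresholded list was made from both replicates, and the matching counts over all thresholded peaks are not given here. These counts thus do not set receptor peaks apart. The deposited −log10 q value was 2.99 for every one except nhr-32, at 2.86.

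**Figure D1:**
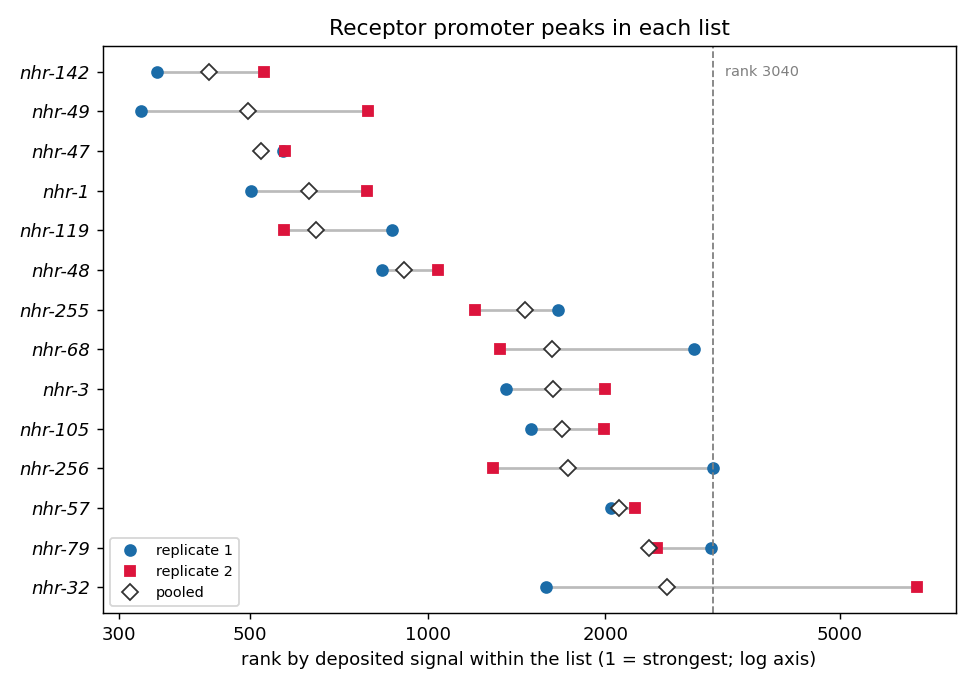
Rank of each of the 14 receptor promoter peaks by deposited signal (horizontal log axis, 1 is strongest) in the lists of replicate 1, replicate 2 and the pooled replicates, with a dashed line at rank 3040. The markers of nhr-47, nhr-48 and nhr-57 lie close together, whereas nhr-32 ranked 1586 in replicate 1 and 6746 in replicate 2.

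A list of 15 receptor genes taken as metabolic was chosen with earlier results of these data known. On it, 3 had a thresholded promoter peak (20%, beside 11.6% of all genes): nhr-49, nhr-57 and nhr-68. These are too few genes to place the share. The gene nhr-49 encodes an HNF4-like receptor that drives fatty acid desaturation and beta-oxidation and the response to fasting. Its peak lay at I:9869101-9869450 (ce11), with the summit 375 bp upstream of the outermost start (WBGene00003639, I:9869651-9874680, plus strand). By signal it stood 327th in the list of replicate 1, 792nd in replicate 2 and 496th in the pooled list. The gene nhr-57 is a known target of the hypoxia-inducible factor HIF-1. Its peak at V:4131520-4131869 had its summit 194 bp upstream (WBGene00003647, V:4131889-4135102, plus strand) and ranked 2049, 2243 and 2107 in the same lists. The replicates placed it close together. The gene nhr-68 acts with nhr-10 in switching on the propionate shunt, an alternative to the vitamin B12-dependent pathway of propionate breakdown. Its peak at V:11572828-11573177 ranked 2827, 1326 and 1623, with the summit 437 bp upstream of nhr-68 (WBGene00003658, V:11573440-11575709, plus strand) but only 13 bp from the start of the divergently transcribed H12C20.7.

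In the pooled list 13 of the 15 genes listed as metabolic had a promoter entry, beside 36.3% of all genes, a difference that was not tested. Of the 12 without a thresholded peak, 10 had a pooled promoter entry below the threshold and 2, nhr-66 and nhr-76, had none. The strongest of these entries was at nhr-80, which acts with nhr-49 in fatty acid desaturation. Its ranks were 3441 and 4306 in replicates 1 and 2, and 3221 with both pooled, and its summit, 528 bp upstream, was also in the promoter window of H10E21.1. The HNF4-like genes nhr-64 and nhr-69 had pooled ranks of 3711 and 4459. The entry at nhr-13 ranked 5271 in the pooled list and 3197 in replicate 2, with no overlapping entry in replicate 1. Ranks of the others were 6317 at nhr-14, 7270 at nhr-86, 12261 at nhr-45, 13954 at nhr-10, 18940 at nhr-114 and 24619 at nhr-62. Just beyond the promoter window, thresholded summits lay 1395 bp upstream of nhr-10 (pooled rank 1121; ranks 1228 and 1121 in replicates 1 and 2) and 1468 bp upstream of nhr-14 (pooled rank 2405; ranks 5419 and 1884). Another lay 2252 bp upstream of nhr-69, inside a tRNA gene (WBGene00014533; pooled rank 2042).

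Among 9 receptors with recognised partners outside nematodes, 1 had a thresholded promoter peak, nhr-48 (11.1%, beside 11.6% of all genes), and 5 had a pooled entry, beside 36.3%. The gene nhr-48 is related in sequence to daf-12 and nhr-8. The peak at X:15707501-15707850 had its summit 537 bp upstream of the start (WBGene00003638, X:15708213-15716875, plus strand) with ranks of 838 and 1041 in replicates 1 and 2 and 912 with both pooled. The 3 ranks lay close together. Entries below the threshold were found at the Ftz-F1 homologue nhr-25 (pooled rank 9173; ranks 8392 and 25507 in replicates 1 and 2), at nhr-8 (10146), at nhr-85, the homologue of E75 and Rev-erb (13774), and at nhr-23, the DHR3 and ROR homologue required for moulting (14452). The promoter windows of nhr-6 (the NR4A homologue), nhr-41 (of the TR2 and TR4 type), nhr-67 (the Tailless homologue) and nhr-91 (the GCNF homologue) held no pooled entry. Thresholded summits near nhr-8, nhr-23 and nhr-67 were all within the promoter windows of other genes: mrps-24, mrpl-1 and emc-6 for the summit 1077 bp upstream of nhr-8, swsn-9 for the one 3473 bp past the end of nhr-23, and cpt-2 and C08F8.9 for the one 4607 bp past the end of nhr-67. The nearest to nhr-85 lay 2008 bp upstream of its start, ranked 2888, and had no nearer protein-coding start.

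The other 10 peaks were at receptor genes outside both groups. The strongest of all 14 was upstream of nhr-142 (WBGene00018430, V:5785957-5790553, minus strand), at V:5791031-5791162, with ranks of 348 and 527 in replicates 1 and 2 and 426 with both pooled. Its summit lay 516 bp from the start of nhr-142 and 161 bp from that of F44E7.9 on the other strand. At nhr-47 (WBGene00003637, V:5505253-5509956, plus strand) the peak at V:5505183-5505271 had its summit 14 bp upstream and ranked 569, 574 and 522 in the same order. This was the summit closest to a receptor start, and it was also in the window of dnj-19, which encodes a DnaJ-type cochaperone, at 382 bp. The peaks of nhr-142 and nhr-47 were 132 and 89 bp wide, and the other 12 had the 350 bp width of 2501 of the 3040 thresholded peaks.

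Upstream of nhr-1 (WBGene00003600, X:17514063-17528197, plus strand) the peak at X:17513556-17513905 had ranks of 501 and 790 in replicates 1 and 2 and 629 with both pooled. At nhr-119 (WBGene00003709, II:2794016-2800600, minus strand) the peak at II:2800834-2801183 ranked 870, 571 and 647. No other protein-coding gene's promoter window held either of these summits, 332 bp upstream of nhr-1 and 409 bp upstream of nhr-119. The peak of nhr-105 (WBGene00003695, IV:7050156-7053450, plus strand) was weaker, at IV:7049646-7049995, with ranks of 1495, 1991 and 1688 and its summit 335 bp upstream. So was that of nhr-3 (WBGene00003602, X:14558504-14561432, plus strand), at X:14557407-14557756, with ranks of 1358, 1995 and 1632. Its summit was the farthest from a receptor start, at 922 bp upstream.

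Of the remaining peaks, 3 ranked near or past 3040 in a replicate. That of nhr-256 (WBGene00022805, V:1743771-1747981, plus strand), at V:1743475-1743824 with its summit 121 bp upstream, had ranks of 3043 and 1289 in replicates 1 and 2 and 1730 with both pooled. That of nhr-79 (WBGene00003669, V:19207676-19211895, minus strand), at V:19212357-19212706 with its summit 637 bp upstream, ranked 3024, 2450 and 2369. The weakest, of nhr-32 (WBGene00003626, X:13251964-13256284, plus strand), at X:13251502-13251851 with its summit 287 bp upstream, ranked 1586, 6746 and 2548, so that replicate 2 alone would not have placed it among its strongest 3040. Just outside the threshold were nhr-228 (ranks 2525, 4776 and 3203) and nhr-80, and then nhr-158 (pooled rank 3381), nhr-21 (3403), nhr-88 (3419), nhr-64 (3711), nhr-58 (3722), nhr-101 (3753), nhr-206 (3814) and nhr-17 (3974). Of the 93 receptor genes with a pooled entry only, 59 had an overlapping entry in both replicates, 18 in replicate 1 only, 14 in replicate 2 only and 2 in neither. The matching counts over all genes are not given here, so these do not set receptor genes apart. Taking each replicate's own 3040 strongest entries gave 17 receptor genes in replicate 1 (6.32%, beside 11.5% of all genes) and 13 in replicate 2 (4.83%, beside 11.3%), with nhr-21, nhr-35, nhr-88 and nhr-228 gained in replicate 1.

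The peak assigned to nhr-255 lay over another gene. The summit at X:15742073, in a peak at X:15741898-15742247, was 537 bp upstream of nhr-255 (WBGene00014068, X:15742610-15744298, plus strand) and inside a tRNA-Leu gene (WBGene00014626, X:15742050-15742133, plus strand). The capitals in the nhr-255 sequence show that gene, which ends 477 bp before the nhr-255 start. The peak had ranks of 1662 and 1201 in replicates 1 and 2 and 1462 with both pooled. Of all 1727 thresholded promoter summits, 23 (1.33%) lay in tRNA genes, as did 90 of the 3013 nuclear summits. A single other annotated tRNA gene had the same 84 bases, and both copies overlapped a thresholded peak. The treatment of reads that match several places is not stated, so signal from the copies cannot be told apart.

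Receptor peaks lay upstream of the start and mostly outside the promoter windows of other genes. All 14 summits were upstream of the start, at a median of 392 bp, and 3 of them (21.4%) were within 200 bp of it. Over all genes, 95.0% of the 2380 pairs of gene and promoter summit were upstream, at a median of 238.5 bp, and 42.4% were within 200 bp. Of the 14, 3 (nhr-47, nhr-68 and nhr-142) shared their summit with the window of another protein-coding gene, beside 1239 of 2312 genes in all (53.6%). With each summit assigned to its nearest start alone, nhr-68 and nhr-142 lost theirs. Without shared summits, 11 receptor genes (4.09%) remained, beside 5.45% of all genes.

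**Figure D2:**
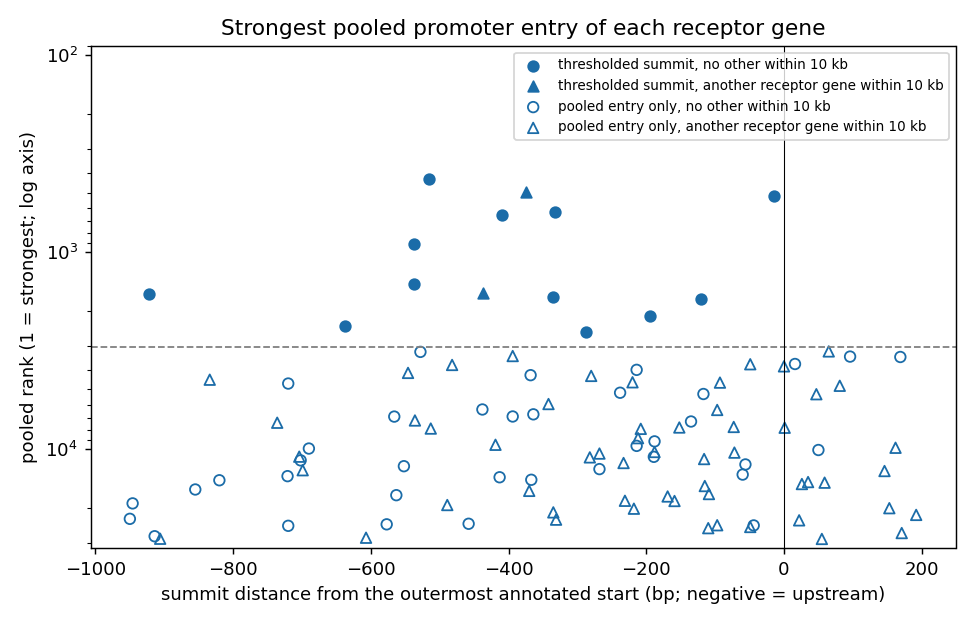
Distance of the summit from the outermost annotated start (horizontal, bp, negative is upstream) against pooled rank (vertical log axis, strongest at the top) for the strongest pooled promoter entry of each of the 107 receptor genes that had one. Filled symbols are the 14 thresholded peaks, all upstream and above the dashed line at rank 3040, and 2 of them are triangles, receptor genes with another within 10 kb.

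Clustered receptor genes seldom had a thresholded peak. With another receptor gene within 10 kb, 2 of 159 did, nhr-49 and nhr-68 (1.26%, exact 95% interval 0.153 to 4.47). With none within 10 kb, 12 of 110 did (10.9%, interval 5.77 to 18.3), beside 11.6% of all genes. That share joined unlike parts, 5 of 17 genes on X (29.4%, interval 10.31 to 55.96) and 7 of 93 on the autosomes (7.53%, interval 3.08 to 14.9). Of all genes, 8.75% on X and 12.02% outside X had such a peak. In the pooled list, receptor genes with another within 10 kb had an entry at 58 of 159 (36.5%), and those with none at 49 of 110 (44.5%). On chromosome V alone, which holds 167 of the 269 genes, 1 of 122 clustered genes and 5 of 45 others had a thresholded peak. The distance of 10 kb was chosen after the locations were seen. Neighbouring receptor genes can share sequence, and its part in the result was not tested.

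**Figure D3:**
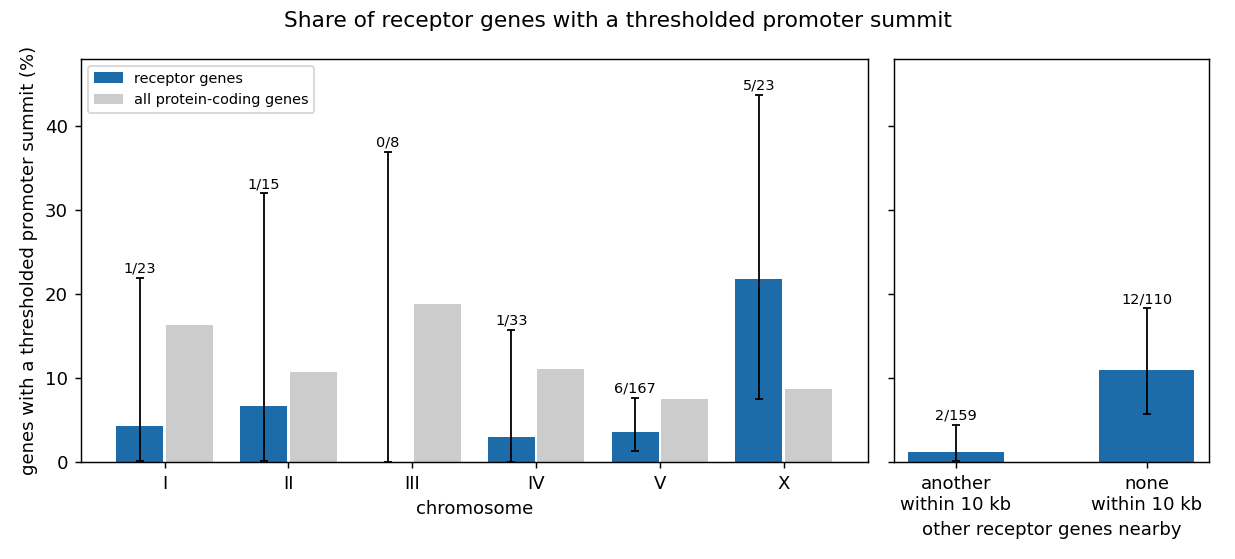
Percentage of receptor genes (blue) and of all protein-coding genes (grey) with a thresholded promoter summit on each chromosome, and, on the right, of receptor genes with another or none within 10 kb. Error bars are exact 95% intervals for the receptor genes, and the fractions give the counts, which are highest relative to all genes on X, at 5 of 23.

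The X chromosome held 5 of the 14 peaks, at nhr-1, nhr-3, nhr-32, nhr-48 and nhr-255. That was 21.7% of its 23 receptor genes (exact 95% interval 7.46 to 43.7), beside 8.75% of all X-linked genes. Without the nhr-255 peak on the tRNA gene it was 4 of 23 (17.4%). The X-linked receptor genes were also less clustered, 17 of the 23 having no other within 10 kb, and all 5 with a peak were among these. On V the share was 6 of 167 (3.59%, interval 1.33 to 7.66), beside 7.53% of all genes there. On the arms of V, the outer 30% at each end, it was 5 of 125 (4%, interval 1.31 to 9.09). All genes on those arms had 5.73%, inside that interval. In the centre of V it was 1 of 42 (2.38%), beside 9.95% of all genes there. Over the arms of all autosomes it was 6 of 174 (3.45%), beside 11.1%. Chromosome I had 1 of 23, beside 16.3% of all genes there, II had 1 of 15, beside 10.7%, and IV had 1 of 33, beside 11.1%. Chromosome III had 0 of 8, which allows up to 36.9%, beside 18.8%. Outside X the share was 9 of 246 (3.66%), beside 2073 of all 17242 genes there.

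The median GC content of the promoter window was 36.1% at the 14 genes with a thresholded peak, 33.4% at the 93 with a pooled entry only and 34.1% at the 162 without an entry. Over all genes the corresponding medians were 36.6%, 34.3% and 34.8%. Receptor genes with several annotated starts had a thresholded peak at 7 of 102 (6.86%), beside 15.4% of all such genes, and those with 1 start at 7 of 167 (4.19%), beside 10.1%. In the pooled list the gap was wider, with an entry at 55.9% of receptor genes with several starts and at 29.9% of those with 1. The matching pooled shares over all genes are not given here, so this gap cannot be called particular to receptor genes. Several starts were annotated at 50% of the receptor genes with a thresholded peak, 53.8% of those with a pooled entry only and 27.8% of those without an entry. Over all genes the same classes had 36.4%, 37.0% and 22.0%.

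Short motifs were counted within 75 bp of the summit on both strands. The receptor half-site AGGTCA was at 0 of 14 receptor summits (exact 95% upper limit 23.2%), beside 55 of the 1727 promoter summits (3.18%). TTTGAA, a form of the CHR element known from targets of the DREAM complex, was at 1 of 14, nhr-48 (exact 95% interval 0.181 to 33.9). The share at promoter summits, 31.8%, lay inside that interval. The E2F-type GCGGGAA was at 0 of 14, beside 4.23%. In 151 bp windows centred 300 bp upstream of all 19973 starts, AGGTCA was at 3.93%, TTTGAA at 41.3% and GCGGGAA at 1.78%. GAGAGA was at 8 of 14 (57.1%, exact 95% interval 28.9 to 82.3), beside 29.0% of promoter summits and 9.01% of 151 bp windows centred 300 bp upstream of all 19973 starts. With 50 bp on each side it was at 5 of 14 (35.7%), beside 22.2% of promoter summits. The 8 were nhr-1, nhr-32, nhr-47, nhr-48, nhr-49, nhr-68, nhr-105 and nhr-119. At nhr-47 it lies past the start and so outside the printed stretch.

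Another pair of motifs was picked from the printed sequences after they were seen. Their shares at receptor summits were thus selected to be high, and the shares beside them are description only. GCGTCTC was at 4 of 14 receptor summits (nhr-1, nhr-57, nhr-119 and nhr-142), beside 13.7% of promoter summits and 1.63% of the windows upstream of all starts, and nhr-119 held 2 copies. It can share bases with TCTCTC, the complement of GAGAGA, as in the stretch GCGTCTCTC at nhr-119, which counted for both motifs. GCGCCAGC was at 2 of 14, nhr-47 and nhr-142, beside 4.46% of promoter summits and 0.275% of the upstream windows. The median GC content within 75 bp was 47.4% at receptor summits, with a range of 31.1 to 57.6%, and 43.0% at all promoter summits, and the motif shares were not adjusted for it. The motif matches describe letters and not sites of binding.

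Inside receptor genes, 12 further thresholded summits were found in 8 genes (2.97% of the 269, beside 2.91% of all genes), all 12 in introns. At nhr-1 and nhr-3 they accompanied a promoter peak. The one inside nhr-3, 1900 bp past the start, had ranks of 399 and 1391 in replicates 1 and 2 and 804 with both pooled, and was stronger than its promoter peak in both replicates. That inside nhr-1, 3070 bp past the start, ranked 3230, 2641 and 2486 and was weaker than its promoter peak in both.

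The other 6 genes had summits inside only. The strongest was in nhr-19, 1912 bp past the start, at II:9603439-9603788 (ranks 687, 426 and 486), where further summits at 3665 and 4275 bp had pooled ranks of 2772 and 2396. The summit in nhr-17 lay 2507 bp past the start (X:12665172-12665521; ranks 808, 649 and 626), and the nearest protein-coding start was that of nlp-76, at 1444 bp. The summit in nhr-46 lay 3672 bp past the start (IV:5754015-5754364; ranks 2642, 618 and 968). Replicate 2 ranked that peak well above replicate 1.

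At 3 of the genes an internal summit was within the promoter window of a start inside the gene, so that counting every annotated start gave 17 receptor genes with a promoter peak (6.32%, beside 12.4% of all genes). In nhr-40, a gene with a role in muscle development, a summit lay 402 bp upstream of the internal start (X:2598831-2599180; ranks 2867, 1431 and 1796), and another lay 1544 bp past the outermost start (pooled rank 2136). In nhr-34 one lay 967 bp upstream of such a start (IV:9669987-9670336; ranks 2127, 2635 and 2247) and another had a pooled rank of 2327. In nhr-41 the summit was 177 bp past an internal start (IV:1388099-1388448; ranks 1120, 2210 and 1544) and inside a tRNA-Glu gene (WBGene00023202, IV:1388216-1388287, minus strand). The 72 bases of that tRNA gene are shared by 14 other annotated copies, and 6 of the 15 overlapped a thresholded peak.

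**Figure D4:**
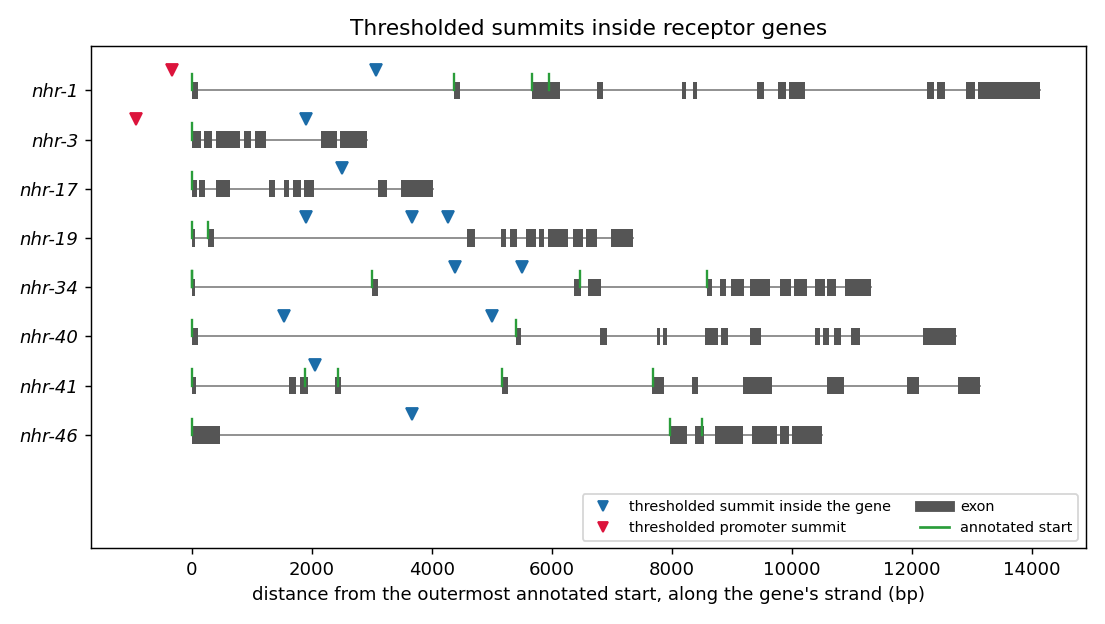
Gene models of the 8 receptor genes with a thresholded summit inside the gene, along the gene's strand from the outermost annotated start (horizontal, bp), with exons as boxes, annotated starts as green ticks and summits as triangles. All 12 internal summits (blue) fall between exons, and nhr-1 and nhr-3 also have a promoter summit (red).

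In all, 20 receptor genes had such a summit at the promoter or inside the gene (7.43%, beside 13.8% of all genes). On X it was 7 of 23 (30.4%), beside 11.4% of all X-linked genes. Within 5000 bp of the gene, 49 did (18.2%), beside 31.9% of all genes.

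Of 5 receptors that do not carry the nhr- name, 0 had a thresholded promoter peak, beside 11.6% of all genes, which is too few genes to place their share. For daf-12, the receptor for dafachronic acid, a pooled entry at the promoter ranked 28263, and a thresholded summit lay 1746 bp past its outermost start (pooled rank 1209). The entry at unc-55, a COUP-type receptor that sets motor neuron identity, ranked 14742, and fax-1, odr-7 and sex-1 had none at the promoter. Of 8 genes for cofactors and ligand synthesis, 2 had a thresholded promoter peak, beside the 11.6% of all genes. The acetyltransferase gene cbp-1, the CBP and p300 homologue, had one at III:9765447-9765707, with ranks of 85 and 90 in replicates 1 and 2 and 92 with both pooled. The DAF-12 corepressor gene din-1 had one at II:11634150-11634499 (ranks 562, 750 and 676). The Mediator subunit gene mdt-15, whose product is a coactivator for NHR-49, had a pooled entry of rank 8435, shared with R12B2.6 and R12B2.13. The dafachronic acid synthesis genes daf-9, daf-36, hsd-1 and dhs-16 had no pooled promoter entry. The chaperone gene hsp-90 had none in the window either, but a thresholded summit lay 863 bp past its start (pooled rank 86).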

How the data were processed

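Chromatin immunoprecipitation with sequencing was done on 2 biological replicates of L2 larvae. Per the names and listings of the deposited files, the replicate and pooled lists were input to an irreproducible discovery rate (IDR) step and the thresholded list came out of it, each on ce10 and ce11. No source used here gives the aligner, peak caller or threshold. The deposited signal value, of unstated scale, served to rank the entries of each list and for nothing else. The deposited −log10 q value was described and not used for selection. Depth is unknown because read counts are lacking, and each unthresholded list has 30000 entries whatever its depth. The thresholded list held 3040 peaks, 3013 of them nuclear, all among the strongest 3040 of the pooled list.

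Only ce11 lists were used, with Ensembl release 115 gene models on WBcel235. No entry ran past a chromosome end. Summits were assigned to every promoter window that held them. Replicate ranks are those of the strongest entry overlapping the peak by at least 1 bp. The assignment was tested on simulated data, where 200 of 200 planted summits were placed as planted among 19973 genes. The genes, groups and motifs were chosen with earlier results of these data known. Named genes were all receptor genes with a thresholded promoter summit, the 10 best-ranked without one, all genes of the groups, and genes sharing a receptor summit, and genes with summits inside or near them were named after their values were seen. No test between groups is possible with 1 group. Scripts ran in Python 3.11.15 with scipy 1.17.1 for intervals, numpy 2.4.6 and, for plots, matplotlib 3.10.9.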

Additional observations from a re-analysis of the deposited data

How the results depend on the processing

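The count of 14 receptor genes was 9 with a window of 500 bp upstream to 100 bp downstream (3.35%, beside 9.30% of all genes), where nhr-3, nhr-48, nhr-79, nhr-142 and nhr-255 fell outside, and 21 with 2000 bp upstream to 500 bp downstream (7.81%, beside 14.9%). With the stronger 1520 thresholded peaks it was 7 (2.60%), and the count of all genes was 1393 (6.97%). The receptor share was below that of all genes under each of these settings and under the others tried. Leaving out 1 replicate gave 13 to 17 receptor genes, 2264 to 2296 genes of any kind, and 109 to 116 receptor genes with an entry in the unthresholded list, beside 107 in the pooled one. Leaving out shared summits, which was chosen after seeing the data, cut the count of all genes to 1088 (5.45%) and that of receptor genes to 11 (4.09%). The gap between the shares was smallest under this setting. Leaving out summits in small RNA genes, chosen likewise, gave 13. The half-site AGGTCA was found at 1 summit, nhr-57, with 150 bp on each side, beside 5.85% of promoter summits. Over 50, 75 and 150 bp on each side, TTTGAA was at 1, 1 and 3 of 14 receptor summits, beside 20.3, 31.8 and 55.1% of promoter summits. GAGAGA was at 5, 8 and 10, beside 22.2, 29.0 and 37.9%. The shares over all promoter summits thus rose with the window too. The median distance of 392 bp was the same from the nearest annotated start. Ranks carry no counting error, since the depth is unknown.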
